A study of Mus musculus with 13 samples.

Results

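The genes described here are 37 interferon-stimulated genes, chosen by name, other than the GTPases of the IRG and GBP families and the MHC genes. They were followed in S1 segments of the proximal tubule, the first stretch of the tubule after the glomerulus, from the kidneys of male C57BL/6J mice. For each gene the probe set carrying that single symbol was taken, and the brightest one where there were several, which gave values for 34 of the 37 among 22180 genes tested. Oas1a and Dtx3l shared their probe sets with Oas1g and Parp9, and no probe set carried Ifi44 as its single symbol, so these 3 were left out.

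Expression was measured on 13 Affymetrix whole-transcript arrays in 3 groups. Control mice (4 arrays) received sterile saline. The LPS group (4 arrays) received 1 intraperitoneal dose of 5 mg/kg lipopolysaccharide (LPS, serotype 0111:B4, the endotoxin of Gram-negative bacteria) and was examined at 24 hours. The LPS/LPS group (5 arrays) received 0.25 mg/kg LPS and, 24 hours later, the same challenge of 5 mg/kg, a schedule called preconditioning. Whether the arrays stand for different animals is not in the labels, and p-values therefore measure only the spread between these samples, which may in part be technical.

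Interferons are secreted alarm proteins. Type I and type III interferons signal through their receptors and the kinases JAK1 and TYK2 to a complex that holds STAT2 and IRF9 and binds a DNA motif called the interferon-stimulated response element (ISRE). Type II interferon acts through another motif, the gamma-activated sequence (GAS). LPS can start this circuit through the receptor TLR4, the adaptor TICAM1 and the factor IRF3, which induces interferon beta. The responding genes encode antiviral effectors, the ISG15 conjugation and ADP-ribosylation enzymes that modify other proteins, sensors of foreign nucleic acid, and the IRF and STAT factors that sustain the circuit.

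To show what these genes share apart from their name, their promoters were searched for both motifs in a table of RefSeq promoters (mouse assembly GRCm38.p6), which holds 250 bases before and 50 after each start and had entries for 28 of the 37. The ISRE core GAAANNGAAA, read on either strand with overlaps counted, stood in 12 of the 28, against 3.99% of 27025 genes in the table. The GAS core TTCNNNGAA, which reads alike on both strands, stood in 9 of the 28, against 9.55% of those genes. The stretches below are shown because they hold these cores in the brightest gene of the set, in the name-giving gene Isg15 and in 2 of the regulators described further on. Each is written 5′ to 3′ on the gene's own strand, with the core in capitals.
Ifit3, chr19:34583353-34583436, plus strand, 2 ISRE cores: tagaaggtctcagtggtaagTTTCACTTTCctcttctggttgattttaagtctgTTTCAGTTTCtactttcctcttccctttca
Isg15, chr4:156200855-156200916, minus strand, 3 overlapping ISRE cores: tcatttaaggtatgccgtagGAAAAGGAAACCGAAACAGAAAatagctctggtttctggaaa
Stat2, chr10:128270256-128270305, plus strand, 1 ISRE core: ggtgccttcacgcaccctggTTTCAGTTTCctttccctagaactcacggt
Irf8, chr8:120736167-120736233, plus strand, 2 GAS cores: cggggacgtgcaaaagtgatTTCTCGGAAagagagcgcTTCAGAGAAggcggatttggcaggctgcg
A match describes these letters only. The other measured genes with an ISRE core in the window were Bst2, Ddx58, Eif2ak2, Ifih1, Ifit1, Ifitm3, Oas3 and Rsad2, so the motif occurred in effectors, sensors and a regulator alike.

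Most of these genes gave dim signals. No detection calls were at hand, so a background reference was set from 1105 olfactory receptor genes, at the 95th percentile of their means, a log2 level of 4.77. Ifit3, which encodes an antiviral protein, was the single measured member with a mean over all arrays above it, at 5.87, and 31 of the 34 lay above the olfactory median of 2.77. Ifi35, an interferon-induced leucine zipper protein, came next with a mean of 4.64, and its LPS group mean of 4.80 passed the reference. The lowest means were those of Isg15 at 2.33, the antiviral GTPase gene Mx1 at 2.31 and Eif2ak2, which encodes the double-stranded RNA kinase PKR, at 1.78. Probe sets differ in how well they bind, so these levels give no order of abundance between genes. The genes named further on as called, Irgm1, Gbp11 and H2-T23, had means over all arrays of 3.54, 2.37 and 3.85. Their LPS group means were 4.71, 3.12 and 5.72. Their differences in LPS/LPS vs LPS were -1.68, -1.08 and -3.01, against -0.49 for the lowest member, Irf7. Whether dimness kept members from being called was not tested.

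The summarised values also repeated themselves exactly. In 8 of the 34 members 1 value occurred in at least 3 arrays, which was 23.5% of members against 29.2% of all genes. Dhx58, which encodes the RNA sensor LGP2, had the same value in 7 of its 13 arrays, and Oasl2, Bst2, Parp14 and Irf9 each had 1 value in 4 arrays. Their spread within a group can therefore be close to 0 for part of the arrays.

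The 13 arrays had medians of log2 values between 3.56 and 3.68 and correlated pairwise with r from 0.747 to 0.906. They were cut at the median of their standard deviations of log2 values, 1.35, into 7 arrays with a wide and 6 with a narrow spread. The cut itself fixes these 2 counts, so the classes are no grouping found in the data. Wide arrays were unevenly placed over the groups (2 of 4 control, 3 of 4 LPS and 2 of 5 LPS/LPS arrays). Of 15 markers of the S1 segment 7 lay above the background reference, with the phosphate transporter gene Slc34a1 at a mean of 10.1, while the SGLT2 gene Slc5a2 had a mean of 4.27, below it. The S1 list had a median difference of 0.12 in LPS vs control, with 9 of 15 markers above 0. Its median was -0.42 in LPS/LPS vs control, with 15 of 15 markers below 0, and -0.47 in LPS/LPS vs LPS, with 14 of 15 below 0. In LPS vs control Slc34a1 (-1.19), Slc22a6 (-1.29) and Miox (-0.99) were lower at an unadjusted limma p under 0.05. These are 3 of 15 markers, against 2.95% of all genes. At the same threshold 6 of 15 were lower in LPS/LPS vs control, against 2.07% of all genes. In LPS/LPS vs LPS 5 of 15 were lower, against 4.49%. In each comparison 0 markers were higher. Slc34a1 differed by -2.01 in LPS/LPS vs control. Of the S1 markers 0 were called in any comparison, and the list's part in the members' differences was not tested. LPS replicate 3 stood apart in the markers of other nephron segments, with a mean level over 12 markers of 5.09 against 3.96 to 4.22 in the other 12 arrays. Its levels of the thick ascending limb genes Umod (8.36) and Slc12a1 (6.79) were the highest of all arrays. Slc12a3, another marker of this list, was at 6.38 in LPS replicate 3 and at 5.43 in LPS replicate 4, against at most 4.90 in control arrays. It differed by 0.94 (SE 0.39, limma adjusted p = 0.719) in LPS vs control and -0.81 (SE 0.37, adjusted p = 0.568) in LPS/LPS vs LPS.

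No member passed the threshold in any comparison. All 13 arrays entered 1 limma fit, Benjamini-Hochberg adjustment covered all 22180 genes, and a gene was called at an adjusted p under 0.05. By this rule 0% of all genes were called in LPS vs control, 0.00902% (2 genes) in LPS/LPS vs control and 0.0631% (14 genes) in LPS/LPS vs LPS, so calls were rare everywhere. The 3 comparisons share arrays, and their values stand side by side without being evidence for each other.

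The measured size of the differences was small. In LPS vs control the 34 members had a median log2 difference of 0.21, with 26 above 0, while all genes had a median of -0.02. The members' median was 0.03 in LPS/LPS vs control, with 19 above 0, and that of all genes was 0.03. It was -0.08 in LPS/LPS vs LPS, with 25 below 0, against 0.05 for all genes. The 95% intervals of the members in LPS vs control reached from -0.81 (Ifit2) to 1.09 (Ifit3) at their ends. Without LPS replicate 3, the array high in markers of other nephron segments, the members' medians were 0.21 in LPS vs control and -0.09 in LPS/LPS vs LPS. Without LPS replicate 1 the members' median in LPS vs control was 0.10. In LPS/LPS vs control it ranged from 0.005 without control replicate 1 to 0.08 without control replicate 2, and was 0.005 with each array centred on its median. The median in LPS/LPS vs LPS was -0.05 without LPS/LPS replicate 1 and -0.13 without LPS replicate 2.

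**Figure D1:**
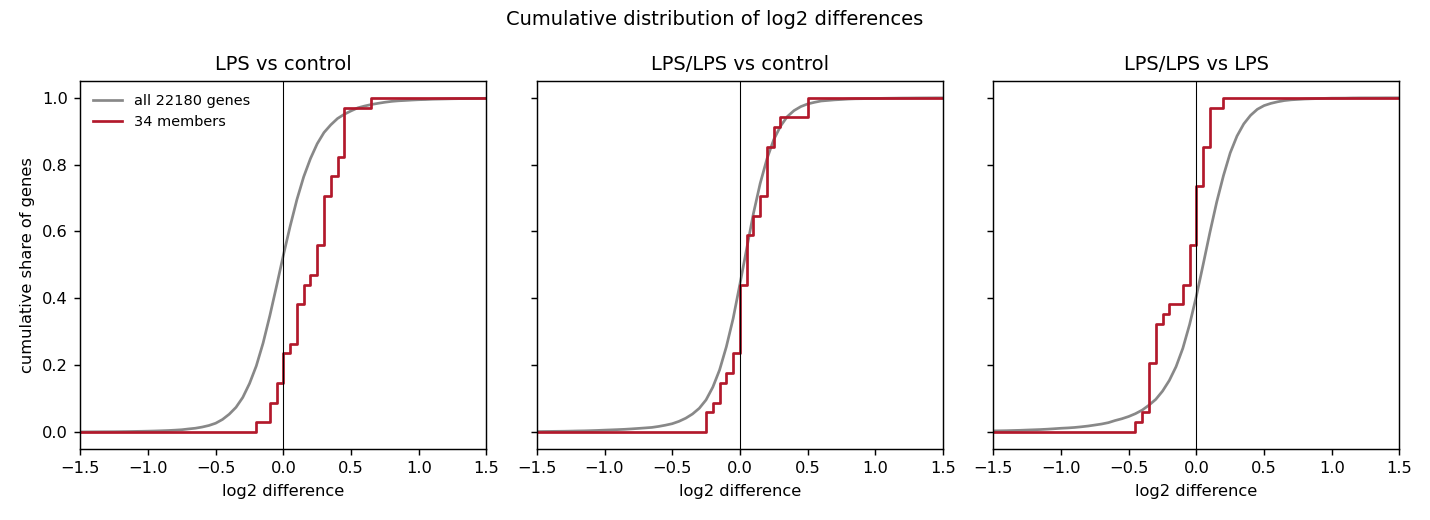
Cumulative share of genes (vertical axis) against the log2 difference (horizontal axis) in the 3 comparisons, for all 22180 genes (grey) and the 34 measured interferon-stimulated genes (red, in steps). The red curve lies right of the grey one over most of LPS vs control (medians 0.21 and -0.02), close to it in LPS/LPS vs control, and left of it over most of LPS/LPS vs LPS (medians -0.08 and 0.05).

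Before adjustment, 4 members were higher at a limma p under 0.05 in LPS vs control, Rtp4, Uba7, Stat2 and Irf8, which is 11.8% of the members against 3.49% of all genes, and 0 members were lower against 2.95%. Without control replicate 1 this count was 1. Rtp4 was the 1 member higher in LPS/LPS vs control, against 2.62% of all genes, and 0 were lower, against 2.07%; the count was 2 without control replicate 4. Lower in LPS/LPS vs LPS were 5 members, Xaf1, Uba7, Stat2, Irf7 and Irf8, which is 14.7% against 4.49% of all genes, and 0 were higher against 4.13%. That count was 3 without LPS replicate 3 or without LPS/LPS replicate 3. Since none of these differences passed the adjustment, they are given as values.

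Groups that did not overlap were as few. In LPS vs control every LPS array exceeded every control array for 1 member, Irf7, where 1.55% of all genes did so upward and 1.6% downward. For Eif2ak2 every LPS/LPS array (at most 1.728) lay just below every control (at least 1.730), where in LPS/LPS vs control 0.699% of all genes separated downward and 0.839% upward. Xaf1 was the 1 member whose groups separated in LPS/LPS vs LPS, downward, where 1.3% of all genes separated downward and 1.1% upward.

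**Figure D2:**
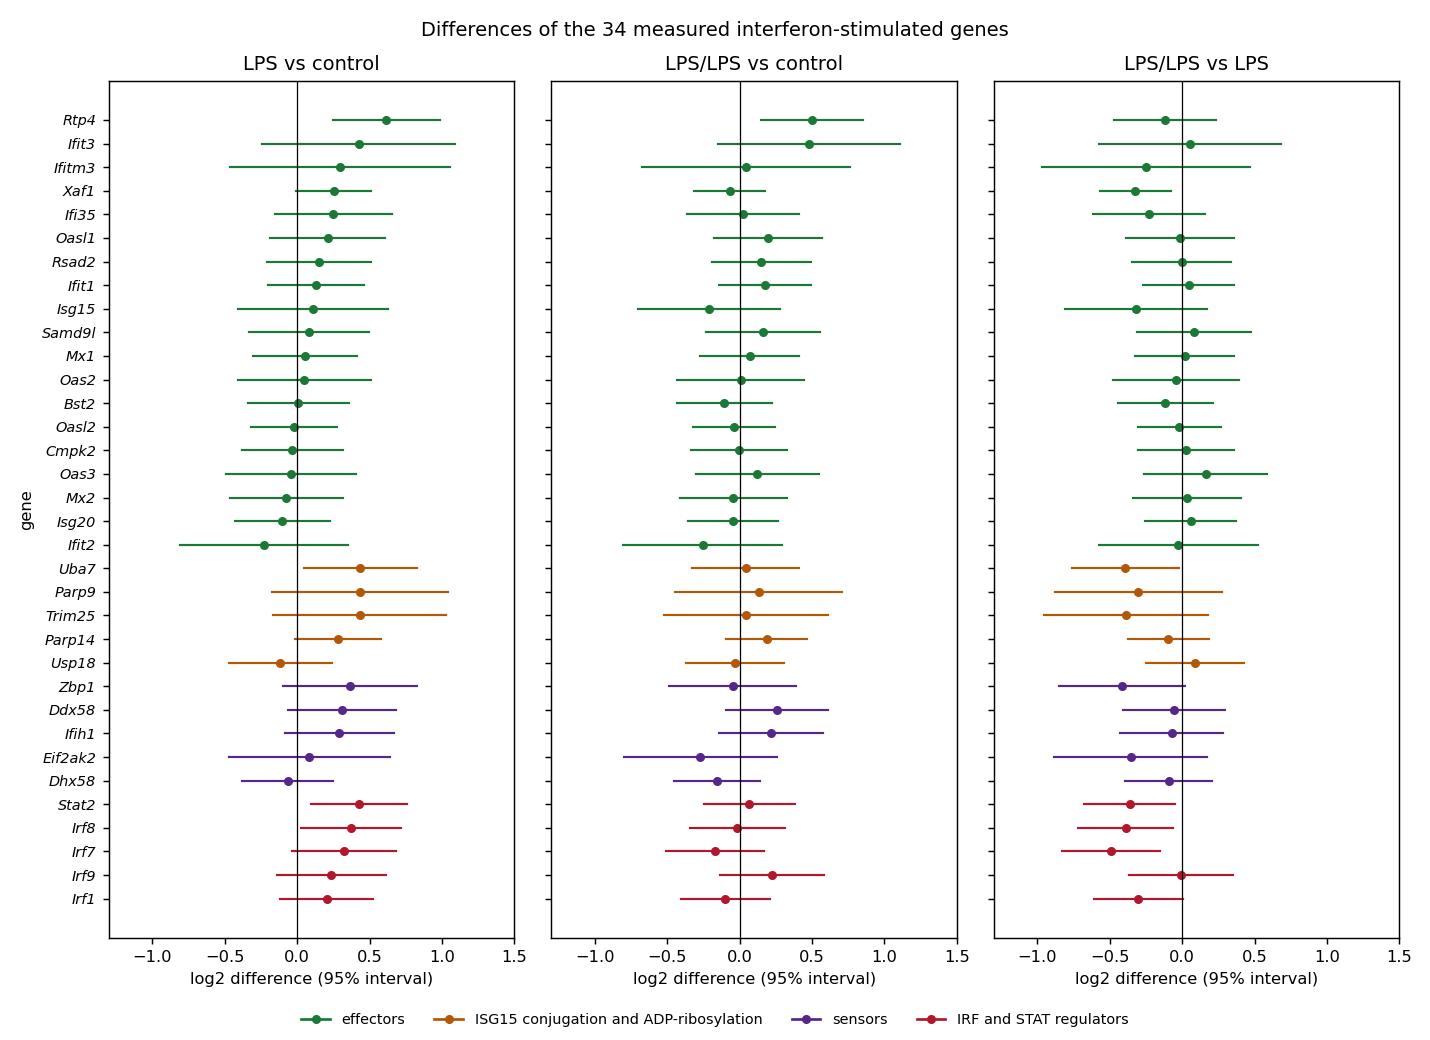
Log2 difference (horizontal axis) of each of the 34 measured genes (rows) in the 3 comparisons; points are limma estimates, bars their 95% intervals, and colours the functional class. In LPS vs control the intervals of Rtp4, Uba7, Stat2 and Irf8 lie above 0, and in LPS/LPS vs LPS those of Xaf1, Uba7, Stat2, Irf7 and Irf8 lie below 0, before adjustment.

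Among the effectors, of which 19 were measured, the median difference was 0.08 in LPS vs control with 13 above 0, 0.02 in LPS/LPS vs control and -0.02 in LPS/LPS vs LPS. Rtp4 encodes a receptor transporter protein that is itself induced by interferon. Its log2 levels were 3.84, 4.42, 3.95 and 3.88 in the control arrays, 4.73, 4.39, 4.89 and 4.54 in the LPS arrays and 4.78, 4.68, 4.41, 4.20 and 4.53 in the LPS/LPS arrays. Control replicate 2 was the high control, and 3 of 4 LPS and 3 of 5 LPS/LPS arrays exceeded it. The difference was 0.62 (SE 0.17, limma adjusted p = 0.517) in LPS vs control, 0.50 (SE 0.16, adjusted p = 0.987) in LPS/LPS vs control and -0.12 (SE 0.16) in LPS/LPS vs LPS.

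Xaf1, a pro-apoptotic partner of the inhibitor XIAP, stood differently. Its levels were 4.30, 4.45, 4.44 and 4.48 in control arrays, 4.48, 4.74, 4.88 and 4.59 in LPS arrays, and 4.38, 4.45, 4.25, 4.34 and 4.33 in LPS/LPS arrays. Every LPS/LPS array lay below every LPS array, and the lowest LPS array was level with the highest control. The difference was 0.25 (SE 0.12, adjusted p = 0.768) in LPS vs control and -0.32 (SE 0.11, adjusted p = 0.449) in LPS/LPS vs LPS.

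Ifit3, the one member above the background reference, had levels of 4.98, 5.99, 5.69 and 5.58 in control arrays, 6.99, 5.93, 5.13 and 5.89 in LPS arrays and 6.11, 6.10, 5.73, 6.08 and 6.18 in LPS/LPS arrays. LPS replicate 1 held the highest and control replicate 1 the lowest level, and the LPS group spanned almost the whole range of the 13 arrays. The differences were 0.42 (SE 0.31, adjusted p = 0.842) in LPS vs control and 0.48 (SE 0.29, adjusted p = 0.987) in LPS/LPS vs control, within the replicate spread.

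The other effectors showed small differences with intervals on both sides of 0 in LPS vs control. Ifit1 and Ifit2, which bind foreign RNA, differed by 0.13 and -0.23. Isg15, the ubiquitin-like modifier, differed by 0.11, Mx1 by 0.05 and Mx2 by -0.07. The oligoadenylate synthetase genes Oas2 and Oas3, whose products activate RNase L, differed by 0.05 and -0.04, and the related Oasl1 and Oasl2 by 0.21 and -0.02. Rsad2, which encodes the antiviral enzyme viperin, differed by 0.15, its genomic neighbour Cmpk2, a nucleotide kinase, by -0.03, and the exonuclease gene Isg20 by -0.10. The membrane proteins Bst2, which tethers virus particles, and Ifitm3, which blocks virus entry, differed by 0.01 and 0.30, and Samd9l by 0.08. Ifi35 differed by 0.25 with the probe set used and by -0.11 with its dimmer probe set.

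The class of ISG15 conjugation and ADP-ribosylation had 5 measured members, with a median difference of 0.43 in LPS vs control, 0.05 in LPS/LPS vs control and -0.30 in LPS/LPS vs LPS. Uba7 encodes the activating enzyme that loads ISG15. Its levels were 3.13, 2.93, 3.65 and 3.13 in control arrays, 3.38, 3.96, 3.72 and 3.53 in LPS arrays and 3.24, 3.45, 2.99, 3.49 and 3.10 in LPS/LPS arrays. Control replicate 3 lay among the LPS arrays, and LPS replicate 1 lay among the LPS/LPS arrays. The difference was 0.44 (SE 0.18, adjusted p = 0.725) in LPS vs control and -0.39 (SE 0.17, adjusted p = 0.545) in LPS/LPS vs LPS.

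Parp14 encodes an ADP-ribosyltransferase. It had levels of 3.46, 3.89, 3.63 and 3.91 in control arrays, 3.91, 4.10, 4.11 and 3.89 in LPS arrays and 4.13, 3.89, 3.83, 3.89 and 3.81 in LPS/LPS arrays. The groups overlapped, and the difference was 0.28 (SE 0.14, adjusted p = 0.768) in LPS vs control. The remaining members of this class were Trim25, a ligase that also activates RIG-I, with a difference of 0.43 (SE 0.28), Parp9, with 0.44 (SE 0.28), and Usp18, the protease that removes ISG15 and damps the interferon receptor, with -0.12 (SE 0.17).

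**Figure D3:**
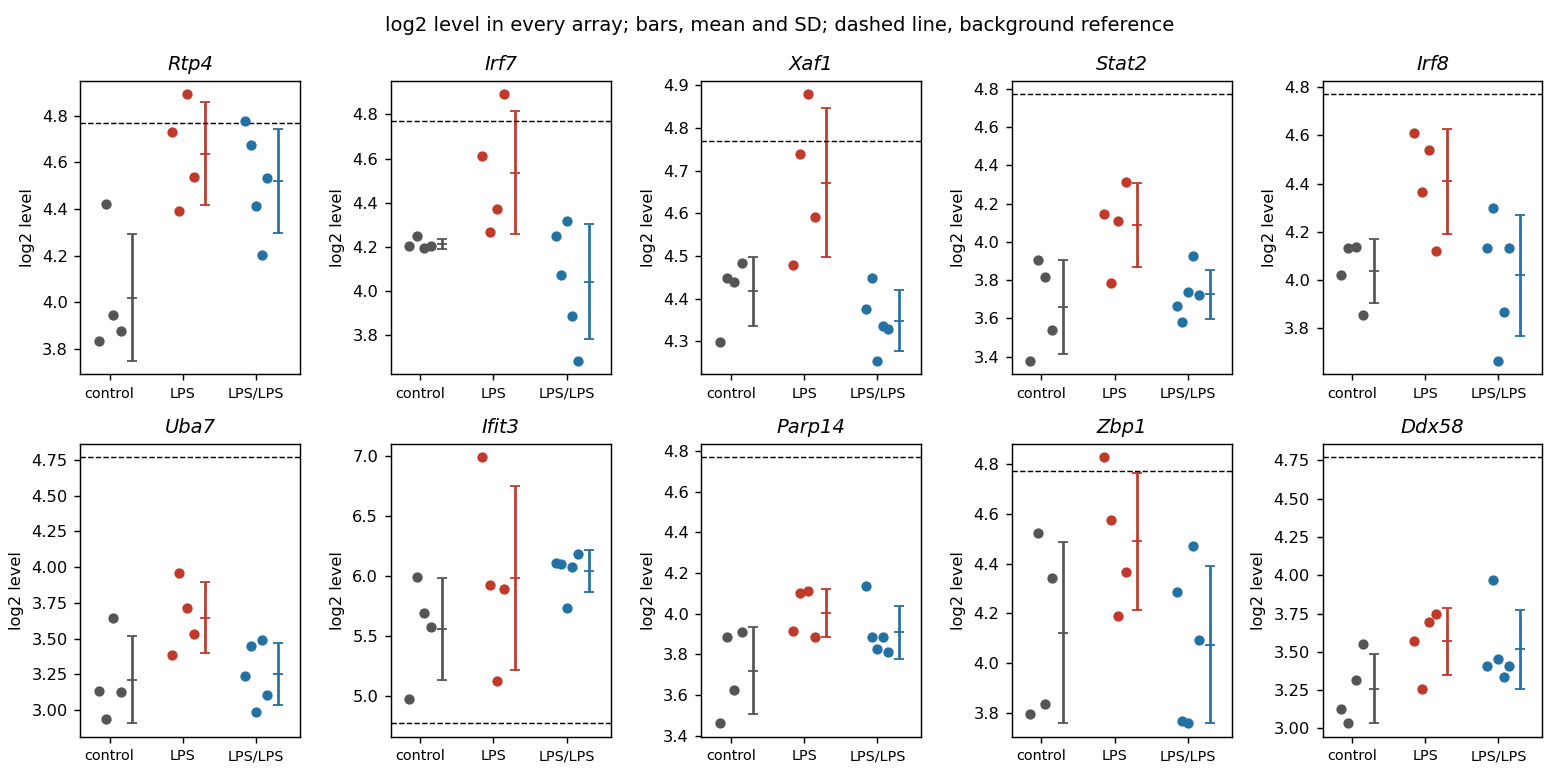
Log2 level (vertical axes, each gene on its own scale) of 10 members in every array of the control, LPS and LPS/LPS groups; points are arrays, bars the mean and SD, and the dashed line the background reference of 4.77. Ifit3 is the gene whose arrays all lie above the line. For Xaf1 all LPS/LPS points lie below all LPS points, and for Irf7 all LPS points lie above all control points.

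All 5 sensor genes were measured. Their median difference was 0.29 in LPS vs control, -0.05 in LPS/LPS vs control and -0.09 in LPS/LPS vs LPS, where each of the 5 was below 0. Zbp1, which senses nucleic acid in the Z form and can start necroptosis, had levels of 3.80, 4.52, 3.84 and 4.34 in control arrays, 4.83, 4.57, 4.19 and 4.36 in LPS arrays and 4.29, 3.77, 3.76, 4.47 and 4.09 in LPS/LPS arrays. All 3 groups overlapped, with differences of 0.37 (SE 0.21, adjusted p = 0.799) in LPS vs control and -0.41 (SE 0.20, adjusted p = 0.594) in LPS/LPS vs LPS.

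Ddx58, the gene of the RNA sensor RIG-I, had levels of 3.13, 3.04, 3.32 and 3.55 in control arrays, 3.57, 3.26, 3.70 and 3.75 in LPS arrays and 3.41, 3.97, 3.45, 3.34 and 3.41 in LPS/LPS arrays. LPS replicate 2 lay among the controls, and the difference was 0.31 (SE 0.17, adjusted p = 0.782) in LPS vs control and 0.26 (SE 0.16, adjusted p = 0.987) in LPS/LPS vs control. Ifih1, which encodes MDA5, had differences of 0.29 and 0.22 in the same comparisons. Dhx58 had -0.07 and -0.16. Eif2ak2 had 0.08 and -0.27, the latter with an SE of 0.25, at levels between 1.33 and 2.92, among the lowest of the set.

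The 5 IRF and STAT regulators were the one class in which each measured gene had a difference above 0 in LPS vs control, from 0.20 (Irf1) to 0.43 (Stat2), with a median of 0.32. Their median was -0.02 in LPS/LPS vs control and -0.36 in LPS/LPS vs LPS, with each gene below 0. Stat2 encodes a partner of IRF9 in the ISRE-binding complex, and its own window shown above holds an ISRE core. Its levels were 3.38, 3.91, 3.82 and 3.54 in control arrays, 4.14, 3.78, 4.11 and 4.31 in LPS arrays and 3.66, 3.58, 3.74, 3.93 and 3.72 in LPS/LPS arrays. LPS replicate 2 was the low LPS array and lay within both other groups. The difference was 0.43 (SE 0.15, adjusted p = 0.677) in LPS vs control and -0.36 (SE 0.15, adjusted p = 0.502) in LPS/LPS vs LPS.

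Irf7, which amplifies type I interferon production, had control levels of 4.20, 4.25, 4.19 and 4.20, a spread of 0.02 (SD, n = 4). Its LPS levels were 4.61, 4.27, 4.37 and 4.89, and its LPS/LPS levels 4.25, 4.07, 4.32, 3.89 and 3.68. LPS replicate 2 exceeded the highest control by a narrow margin, and 3 of 5 LPS/LPS arrays lay below every control and every LPS array. The difference was 0.32 (SE 0.17, adjusted p = 0.774) in LPS vs control and -0.49 (SE 0.16, adjusted p = 0.407) in LPS/LPS vs LPS.

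Irf8 is a factor of myeloid and lymphoid cells that interferon gamma induces, and 2 GAS cores stand in its window. Its levels were 4.02, 4.13, 4.14 and 3.85 in control arrays, 4.61, 4.37, 4.54 and 4.12 in LPS arrays and 4.13, 4.30, 3.66, 3.87 and 4.13 in LPS/LPS arrays. LPS replicate 4 lay among the controls. The difference was 0.37 (SE 0.16, adjusted p = 0.725) in LPS vs control and -0.39 (SE 0.15, adjusted p = 0.487) in LPS/LPS vs LPS. A dimmer probe set of Irf8, with a mean of 2.92, gave -0.03 and 0.18, so the 2 probe sets disagreed in sign. Irf9, the DNA-binding part of the ISRE complex, differed by 0.24 and -0.01, and Irf1, a factor induced by interferon gamma, by 0.20 and -0.30.

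Array by array, as the median over members of the level minus the control mean, the LPS arrays lay between 0.07 and 0.21, the control arrays between -0.10 and 0.04 and the LPS/LPS arrays between 0.03 and 0.12. The LPS and control arrays did not overlap, while the LPS/LPS arrays overlapped both. The control arrays are centred by this construction. For the effectors LPS replicates 2 and 3 were at 0.01 and -0.003, among the controls, and replicates 1 and 4 at 0.19 and 0.17. For the regulators the 4 LPS arrays were at 0.48, 0.14, 0.16 and 0.37, above all controls (at most 0.10) and all LPS/LPS arrays (at most 0.08). LPS replicates 1 and 4 each held the highest level within their group for 12 of the 34 members, against 34.3% and 24.7% of all genes. For replicate 1 the members' share is thus about that of all genes. LPS replicate 2 did so for 3 members, against 17.0% of all genes.

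**Figure D4:**
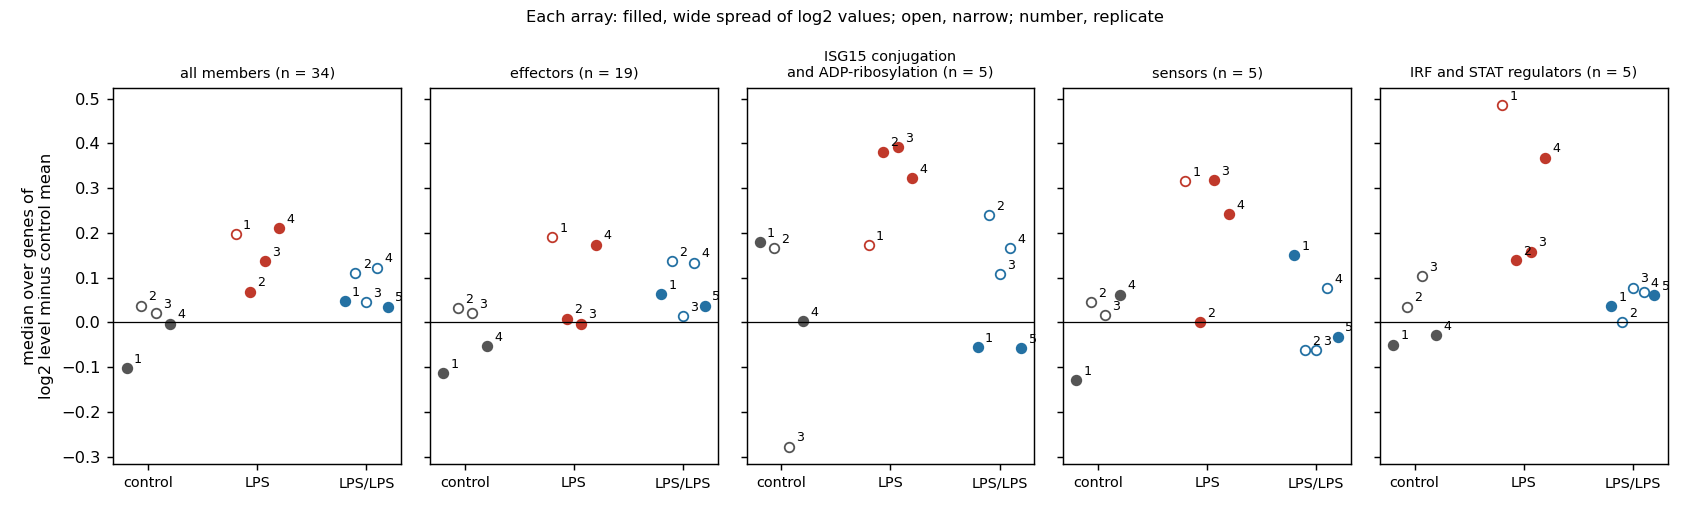
Median over genes of the log2 level minus the control mean (vertical axis) for each array, by group, for all 34 measured members and for the 4 classes; numbers are replicates, filled points arrays with a wide and open points arrays with a narrow spread of log2 values. For the IRF and STAT regulators the LPS arrays, from 0.14 to 0.48, lie above all other arrays, while for the effectors LPS replicates 2 and 3 lie among the controls.

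Within the arrays of wide spread (3 LPS, 2 control) the median over members was 0.15 in LPS vs control, and within those of narrow spread (1 LPS, 2 control) it was 0.16. The medians in LPS/LPS vs LPS were -0.15 and -0.14. Not all classes held across this split. The effectors had 0.05 within the wide and -0.21 within the narrow class in LPS/LPS vs LPS. The class of ISG15 conjugation and ADP-ribosylation had 0.35 and 0.10 in LPS vs control and -0.56 and 0.06 in LPS/LPS vs LPS, a turn of sign. The sensors had 0.23 and 0.21, then -0.19 and -0.15, in these comparisons. The regulators had 0.30 and 0.39 in LPS vs control and -0.23 and -0.52 in LPS/LPS vs LPS within the same classes. For Ifit3 the LPS/LPS vs LPS difference was 0.50 among arrays of wide spread and -1.02 among the others, of which the single LPS array is replicate 1.

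Genes with and without an ISRE core in the promoter window had overlapping differences. Only 25 of the 34 measured genes had a promoter entry, and Rtp4, Zbp1, Parp9 and Parp14 were among those left out. A gene without a core is one whose window lacks these exact letters. In LPS vs control the median was 0.15 for the 11 measured genes with a core, 10 of them above 0, and 0.22 for the 14 without, 10 of them above 0. The sets lay farthest apart in LPS/LPS vs control, with a median of 0.12 and 8 genes above 0 for those with a core, and -0.01 and 6 genes for those without. The medians in LPS/LPS vs LPS were -0.07 and -0.13, with 3 genes above 0 in each.

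Of 9 interferon receptor and kinase genes 0 were called in either direction in any comparison, with a median of 0.13 in LPS vs control. Il10rb, a chain of the lambda interferon receptor, differed by 0.27 (SE 0.18) in LPS vs control and 0.32 (SE 0.17, adjusted p = 0.987) in LPS/LPS vs control. Ifngr2, a chain of the interferon gamma receptor, differed by 0.21 (SE 0.12, adjusted p = 0.781) in LPS vs control and -0.10 (SE 0.11) in LPS/LPS vs LPS. Jak1, the kinase shared by the receptors, differed by 0.37 (SE 0.26, adjusted p = 0.83) in LPS vs control and -0.37 (SE 0.24) in LPS/LPS vs LPS. Of 8 interferon genes 0 were called, with a median of -0.11 in LPS vs control. The lambda interferon gene Ifnl3 differed by -0.74 (SE 0.30, adjusted p = 0.723) in LPS vs control and 0.75 (SE 0.29, adjusted p = 0.481) in LPS/LPS vs LPS. Of 16 genes of induction and feedback 0 were called, with a median of 0.06, and Mavs, the adaptor of RIG-I and MDA5, differed by 0.35 (SE 0.17, adjusted p = 0.768) in LPS vs control and -0.43 (SE 0.16, adjusted p = 0.461) in LPS/LPS vs LPS.

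For comparison on the same arrays, the 13 measured IRG and GBP GTPase genes, which act on the vacuoles of intracellular microbes, had medians of 0.65 in LPS vs control, 0.05 in LPS/LPS vs control and -0.51 in LPS/LPS vs LPS. In the last comparison 2 of them were called lower, Irgm1 with -1.68 (SE 0.27, adjusted p = 0.042) and Gbp11 with -1.08 (SE 0.17, adjusted p = 0.0365). The 17 measured genes of MHC class I presentation had medians of 0.17, -0.04 and -0.17, and H2-T23, a class Ib heavy chain, was called lower in LPS/LPS vs LPS with -3.01 (SE 0.33, adjusted p = 0.006). The difference between these lists and the 34 genes was not tested.

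Markers of other cells were read beside these values, since in tissue RNA fewer cells of a type and less RNA per cell cannot be told apart. The mean level of 22 macrophage and monocyte markers was 3.79 to 3.87 in control, 3.79 to 3.95 in LPS and 3.82 to 3.98 in LPS/LPS arrays. Among them 1, Cx3cr1, had a mean above the background reference. The median difference of these 22 was 0.03 in LPS vs control, with 13 above 0, and 0.06 in LPS/LPS vs LPS. Of 11 neutrophil markers 0 were above the background reference, with median differences of -0.10 in LPS vs control and 0.17 in LPS/LPS vs LPS. The 9 dendritic cell markers had medians of -0.04 and 0.11 in these comparisons and the 13 lymphocyte markers -0.08 and 0.10, opposite in sign to the members. The 13 endothelial markers had 0.15 and -0.04, and 0.17 in LPS/LPS vs control with 11 of 13 above 0. Their mean levels were 3.79 to 3.94 in control, 3.94 to 4.17 in LPS and 3.95 to 4.04 in LPS/LPS arrays. Among them Pecam1 differed by 0.75 (SE 0.27, adjusted p = 0.685) and Cdh5 by 0.53 (SE 0.21, adjusted p = 0.719) in LPS vs control. The 12 markers of other nephron segments had 0.13 and -0.11, with mean levels of 4.06 to 4.22 in control, 4.04 to 5.09 in LPS and 3.96 to 4.15 in LPS/LPS arrays, the highest being LPS replicate 3. No marker of these 6 lists was called in any comparison. The endothelial, nephron, and macrophage and monocyte lists had medians of the same sign as the members in LPS vs control. Their part in the members' differences was not tested.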

How the data were processed

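RNA of S1 segments was extracted with the PicoPure kit and 2 ng per sample was labelled by the Affymetrix WT Pico method, per the labels' protocols. The authors deposited log2 expression values for 41345 probe sets (0.376 to 13.8), and the submitters' processing notes name RMA and Partek 6.6. Not given in the sources used here are the between-array step, the annotation and the build. RMA values of dim probe sets can hold background signal, which makes log2 differences smaller than the true ones, and precision is limited by the number of arrays. Genes were named from the platform annotation: 23521 probe sets had 1 symbol, 1814 several and 16010 none.

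Differences come from limma 3.58.1 (lmFit and eBayes, R 4.3.3) with all arrays and no covariate, two-sided, at Benjamini-Hochberg 0.05 over 22180 genes, checked on simulated data. The members, lists, background reference and array classes were chosen with earlier results of these data known. Values of every array are given for members with an unadjusted p under 0.05 in any comparison or a mean above the reference, filled to 2 per class by lowest p. From other lists, called genes or up to 3 with the lowest p are named, and Umod and Slc5a2 were named after their values were seen. Alternatives varied the arrays, weights, moderation, blocks, scaling, filters and probe sets. Promoters came from RefSeq, GRCm38.p6.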

Additional observations from a re-analysis of the deposited data

Results flagged for a closer look

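In 3 of 45 sets of values examined, each set from 1 group of arrays, the value of 1 array stood apart from the rest. Chance alone gives about 1 in 20 sets, and 3 of 45 is near that rate. The sets share the same 13 arrays. In the LPS/LPS group Parp14 and Ddx58 each hold an exact repeat of 1 value. The gap to the nearest array, divided by the whole range of the 5 LPS/LPS arrays, was 0.769 for Ifit3 (replicate 3 at 5.73, nearest 6.08), 0.765 for Parp14 (replicate 1 at 4.13, nearest 3.89) and 0.813 for Ddx58 (replicate 2 at 3.97, nearest 3.45). These are 3 different arrays.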

How the results depend on the processing

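The count of members called stayed at 0 in all 3 comparisons under every alternative run. The 10 differences at an unadjusted p under 0.05 (of Rtp4, Stat2, Irf8, Uba7, Irf7 and Xaf1) kept their sign in 196 of 196 values. These differences were picked by p in the same data and refitted on mostly the same arrays, so the kept sign is no independent support. In LPS vs control the unadjusted p rose above 0.05 in 6 of 19 alternatives for Irf8, 6 for Uba7, 1 for Stat2 and 0 for Rtp4. In LPS/LPS vs LPS it did so in 6 of 20 for Uba7, 5 for Stat2, 4 for Irf8, 1 for Xaf1 and 0 for Irf7. The cause of the shifts below was not tested. Genes called in LPS vs control (0) became 30 with array weights, 7 with a trended robust prior, 3 with the replicate block, 5 after quantile normalization and 3 among genes above the background reference, and ranged from 0 to 24 with single arrays left out (24 without LPS replicate 1). In LPS/LPS vs control (2) they became 0 with only the 2 groups, without moderation, with the replicate block or over all probe sets, 1 after centring, 4 with the spread block or quantile normalization, and 0 to 3 with single arrays left out. In LPS/LPS vs LPS (14) they became 2, 41, 0, 4, 9 and 7 with only the 2 groups, weights, no moderation, the replicate block, quantile normalization and all probe sets, and 5 to 96 with single arrays left out (96 without LPS replicate 1). Among genes above the reference, where Ifit3 alone remains, the medians were 0.42, 0.48 and 0.056 and the members at an unadjusted p under 0.05 were 0 in each comparison. That count was 3 with the replicate block in LPS/LPS vs LPS and 2 with only the 2 groups in LPS/LPS vs control. With single arrays left out it ranged from 1 to 5, 1 to 2 and 3 to 7 in the 3 comparisons, and the median in LPS vs control from 0.10 to 0.21. Pairing by replicate number was looked for in the deviations from the group means. Same-numbered arrays deviated with r from -0.35 to 0.22, with 3 of 12 pairs over 0.1. Of the 13 arrays 2 correlated best with their own number. With 4 or 5 arrays per group these values cannot settle whether same-numbered arrays were paired. Irf8 at the mean of both probe sets gave 0.17 in LPS vs control and -0.11 in LPS/LPS vs LPS.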
